A study of Mus musculus with 12 samples.

Results

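The urea cycle genes of mouse liver were taken here as Nags, Cps1, Otc, Slc25a15, Ass1 and Asl. They were picked by name and matched to the count table through the Ensembl identifiers that the GENCODE vM1 annotation pairs with those names. All 6 were found among the 51609 gene rows, and all 6 passed the filter on low counts that left 17652 genes for testing. The libraries came from whole livers of C57BL/6 mice in 4 groups of 3: wild type on plain water, wild type given dextran sodium sulfate (DSS), RelaΔhepStat3Δhep on plain water and RelaΔhepStat3Δhep given DSS. DSS is a polymer that injures the lining of the colon, and it was given at 2% in the drinking water over 6 days. The study describes mice of both sexes aged 5 to 7 weeks. RelaΔhepStat3Δhep mice delete Rela (the RelA subunit of NF-κB) and Stat3 through a Cre recombinase under the albumin promoter, so the deletion is meant for hepatocytes, and other liver cells keep both genes. The wild-type mice were littermates without Cre that carry the floxed alleles.

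The urea cycle turns ammonia from amino acid breakdown into urea and works in full only in hepatocytes, most strongly in those near the portal vein. Nags makes N-acetylglutamate, without which the entry enzyme Cps1 is inactive. Cps1 makes carbamoyl phosphate in mitochondria, Otc joins it to ornithine to give citrulline, and Slc25a15 (ORC1) carries ornithine into the mitochondrion in exchange for citrulline. In the cytosol Ass1 joins citrulline to aspartate and Asl splits the product into arginine and fumarate. Inherited loss of any of these proteins in people raises blood ammonia.

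The estimated counts summed to between 65879529 and 82850098 per library, and the smallest count of any member in any library was 2957 (Nags), so counting error was small beside the differences between mice. The libraries labelled RelaΔhepStat3Δhep did not have less Rela RNA: its level in CPM (counts relative to the library total, scaled by TMM) was 41.2 to 54.5 in untreated wild type and 42.8 to 51.4 in untreated RelaΔhepStat3Δhep, so that name stands below for the libraries so labelled. Stat3 was at 45.7, 138 and 87.6 CPM in untreated wild type, at 63.2, 330 and 307 after DSS, at 45.9, 46.7 and 49.7 in untreated RelaΔhepStat3Δhep and at 43.0, 58.0 and 74.8 after DSS. Between genotypes after DSS, DESeq2 called Stat3 lower in RelaΔhepStat3Δhep, among 601 genes called in all, and edgeR and limma-voom did not. Gene counts do not show which exons were read, so RNA levels check the deletion only in part. The study itself characterised the strain by genotyping and by western blots of RelA and Stat3 in liver and colon. The second wild-type DSS library stood apart, with a TMM factor of 0.758 against 0.953 to 1.13 in the others. All 3 RelaΔhepStat3Δhep DSS libraries and the third untreated wild-type library had Xist at 903 to 1283 CPM, and the other 8 had at most 29.0. Y-linked transcripts summed to at most 0.120 CPM in those DSS libraries and to 175 to 241 in the other 8. In the third untreated wild-type library they summed to 30.1, so that this library held transcripts of both sexes. The sex of the mice and DSS cannot be told apart in RelaΔhepStat3Δhep. A fit with sex as a covariate, set by Xist, can separate them only through that mixed library. Hepatocyte markers such as Alb and Apoa1 summed to 125220 to 197850 CPM and so defined the tissue in every library.

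In the mm9 build of the files every member is a protein-coding gene by GENCODE vM1. Which exons the row of each counts is not given in the sources used here. Nags lies at chr11:102006827-102010791 on the plus strand, Cps1 at chr1:67169600-67277833 (plus), Otc at chrX:9829431-9898150 (plus) and Slc25a15 at chr8:23486026-23509093 (minus). Ass1 lies at chr2:31325727-31376192 (plus) and Asl at chr5:130487128-130501002 (minus). Only Nags overlaps another gene that has a row, the transcript Gm11586 on the opposite strand, whose exons share sequence with Nags and which had 2 to 11 counts. Whether the counting used strand is not given in the sources used here, so reads of Nags and Gm11586 cannot be told apart.

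The promoters are shown because Rela and Stat3 are DNA-binding factors and because Otc, Slc25a15 and Ass1 are the members whose wild-type libraries did not overlap between water and DSS. The RefSeq promoter table on GRCm38.p6 (not the build of the counts) matched Nags, Otc, Slc25a15 and Ass1, 4 of the 6 members, and holds 2 starts for Slc25a15. Each window runs from 250 bases before the start of transcription to 50 bases after it, on the gene's own strand. They are Ass1 at chr2:31470020-31470319 (plus), Otc at chrX:10252055-10252354 (plus), Slc25a15 at chr8:22398572-22398871 and chr8:22398228-22398527 (minus) and Nags at chr11:102145263-102145562 (plus). Capitals mark the only match to a searched motif.

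Ass1: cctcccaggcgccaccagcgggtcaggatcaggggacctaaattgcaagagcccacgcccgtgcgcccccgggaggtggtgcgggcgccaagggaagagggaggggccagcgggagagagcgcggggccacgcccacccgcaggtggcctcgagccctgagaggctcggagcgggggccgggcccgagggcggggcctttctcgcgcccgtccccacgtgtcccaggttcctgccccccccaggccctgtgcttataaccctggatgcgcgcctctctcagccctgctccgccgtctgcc
Otc: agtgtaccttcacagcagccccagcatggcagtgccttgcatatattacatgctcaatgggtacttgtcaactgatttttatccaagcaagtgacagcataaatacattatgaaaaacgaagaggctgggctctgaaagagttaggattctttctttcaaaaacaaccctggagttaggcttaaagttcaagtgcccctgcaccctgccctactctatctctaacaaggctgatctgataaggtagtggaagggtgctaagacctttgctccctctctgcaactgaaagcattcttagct
Slc25a15, first start: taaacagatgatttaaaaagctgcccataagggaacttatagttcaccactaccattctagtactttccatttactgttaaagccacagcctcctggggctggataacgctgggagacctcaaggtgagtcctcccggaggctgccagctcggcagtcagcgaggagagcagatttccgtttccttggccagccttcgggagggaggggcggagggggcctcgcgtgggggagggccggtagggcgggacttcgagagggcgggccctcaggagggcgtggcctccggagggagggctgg
Slc25a15, second start: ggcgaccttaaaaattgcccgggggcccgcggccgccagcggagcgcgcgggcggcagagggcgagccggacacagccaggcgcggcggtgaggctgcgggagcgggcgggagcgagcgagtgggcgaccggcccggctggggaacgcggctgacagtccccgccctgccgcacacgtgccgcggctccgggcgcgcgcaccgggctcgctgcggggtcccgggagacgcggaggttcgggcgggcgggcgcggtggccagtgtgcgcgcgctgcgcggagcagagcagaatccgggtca
Nags: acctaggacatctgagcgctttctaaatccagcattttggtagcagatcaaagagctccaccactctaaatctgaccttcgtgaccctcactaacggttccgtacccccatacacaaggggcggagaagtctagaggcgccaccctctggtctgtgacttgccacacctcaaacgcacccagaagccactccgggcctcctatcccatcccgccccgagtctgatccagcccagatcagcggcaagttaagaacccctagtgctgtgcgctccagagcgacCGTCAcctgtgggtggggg

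Each motif was searched on both strands. The STAT motif TTCNNNGAA was in none of the 5 windows and is in 8.3% of the 32851 promoters of 300 bases in the table. The NF-κB motif was also in none of them and is in 8.46% of all promoters. The C/EBP motif TTGCNNAA (10.8% of all promoters) and the TATA motif TATAAA (13.6%) were absent as well. The core TGACG of the cyclic AMP response element, which is in 20.8% of all promoters, matched once, as CGTCA on the other strand, starting 32 bases into the Nags transcript, and it overlapped no other match. These are statements about letters in these windows and say nothing of where the factors bind. The windows differ in base composition, against a median of 52.7% G and C over all promoters. G and C made up 74.0% of the Ass1 window, 57.7% of Nags and 44.3% of Otc. For Slc25a15 they made up 60.7% at the first start and 79.0% at the second.

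Together the 6 genes took between 0.437% and 1.59% of all counts in a library. In untreated wild type their summed level was 13252, 11753 and 11663 CPM, and after DSS it was 11956, 5760.0 and 9722. In RelaΔhepStat3Δhep the sum was 14138, 13876 and 14167 CPM in untreated mice and 9410.0, 9878 and 14747 after DSS. The DSS groups were the more variable in both genotypes, and the lowest sum was that of the second wild-type DSS library.

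Levels were compared between genes per kilobase of exon as annotated in GENCODE vM1, which may not be the annotation behind the counts. Averaged over the 12 libraries, Cps1 had 1341 CPM per kb and Ass1 1137. Otc followed at 152 CPM per kb, Slc25a15 at 135 and Asl at 99.1, and Nags was lowest at 20.8. The ranges over libraries separated Ass1 from Otc, which was lower in 12 of 12 libraries, and Asl from Nags, also in 12 of 12. The other neighbours overlapped in range: Cps1 exceeded Ass1 in 11 of 12 libraries, Otc exceeded Slc25a15 in 8 and Slc25a15 exceeded Asl in 11. The means of each of the 4 groups gave the same order. With the longest transcript as the length, Ass1 came before Cps1 and Asl before Slc25a15.

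**Figure D1:**
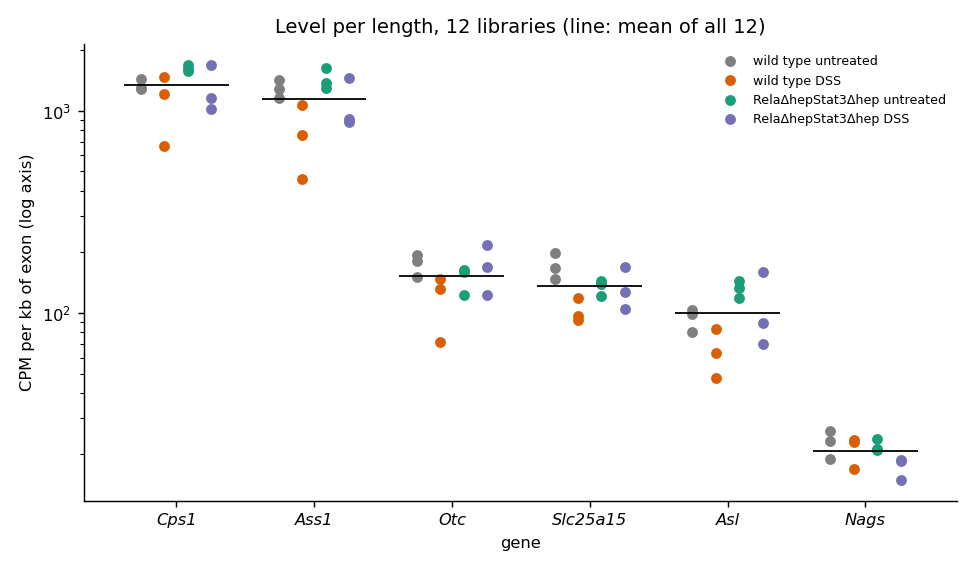
Level of each urea cycle gene in CPM per kb of exon (log axis), 1 point per library and colours by group, with a line at the mean of all 12. Cps1 and Ass1 form an upper tier, Otc, Slc25a15 and Asl a middle tier, and Nags lies lowest at a mean of 20.8.

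The first comparison was DSS against water in wild-type mice and asks what colitis does to the liver. The edgeR quasi-likelihood test called 0 of the 6 members at an adjusted p under 0.05, in a comparison in which it called 0.685% of all genes tested (121 genes). At an unadjusted p under 0.05 there were 2 members, Slc25a15 and Ass1, where 14.5% of all genes tested (2567 genes) had such a p. DESeq2 called 1 member, Slc25a15, against 868 of the 17652 genes tested, and limma-voom called none, against 210. The log2 fold change was negative for all 6, with a median of -0.56 against 0.02 over all genes. Without the second wild-type DSS library that median was -0.41.

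Slc25a15, the ornithine carrier, was at 683, 506 and 577 CPM on water and at 333, 319 and 408 after DSS. Every DSS library was below every water library. The log2 fold change was -0.74 (SE 0.20, 95% interval -1.16 to -0.31), a fold of 0.600, with an adjusted p of 0.106 by edgeR and of 0.00556 by DESeq2. It ranged from -0.85 to -0.62 when any 1 library was left out and was -0.67 without the second DSS library. Among the 6 members this was the difference with the smallest unadjusted p (0.00264).

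Ass1, which makes argininosuccinate, was at 3265, 2960 and 2661 CPM on water and at 2450, 1057 and 1752 after DSS. The groups did not overlap, and the second DSS library was the lowest of all 12. The log2 fold change was -0.76 (SE 0.29, 95% interval -1.39 to -0.12; edgeR adjusted p = 0.250), and it was -0.50 without the second DSS library.

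Otc, which makes citrulline, was at 761, 637 and 817 CPM on water and at 625, 303 and 558 after DSS. The highest DSS library lay just under the lowest water library. The log2 fold change was -0.58 (SE 0.27, 95% interval -1.16 to 0.01; edgeR adjusted p = 0.352), and it was -0.32 without the second DSS library. Slc25a15, Ass1 and Otc were thus the 3 of 6 members whose wild-type groups did not overlap, all lower after DSS, where 18.7% of all genes tested had groups that did not overlap.

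Cps1, the entry enzyme, was at 7997, 7136 and 7188 CPM on water and at 8120, 3726 and 6721 after DSS. The first DSS library was above all 3 water libraries and the second was the lowest of all 12. Its log2 fold change was -0.27 (95% interval -0.88 to 0.35; edgeR adjusted p = 0.734) and came to -0.01 without that second library and to -0.51 without the first. Asl, the argininosuccinate lyase, was at 473, 448 and 367 CPM on water and at 381, 290 and 216 after DSS, with a log2 fold change of -0.54 (95% interval -1.15 to 0.07; edgeR adjusted p = 0.407), or -0.36 without the third DSS library. Its groups overlapped only through the first DSS library, which lay above the lowest water library.

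Nags was at 73.4, 65.7 and 53.6 CPM on water and at 47.9, 65.1 and 66.9 after DSS. These ranges overlapped, and the log2 fold change was -0.10 (95% interval -0.45 to 0.25; edgeR adjusted p = 0.840).

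**Figure D2:**
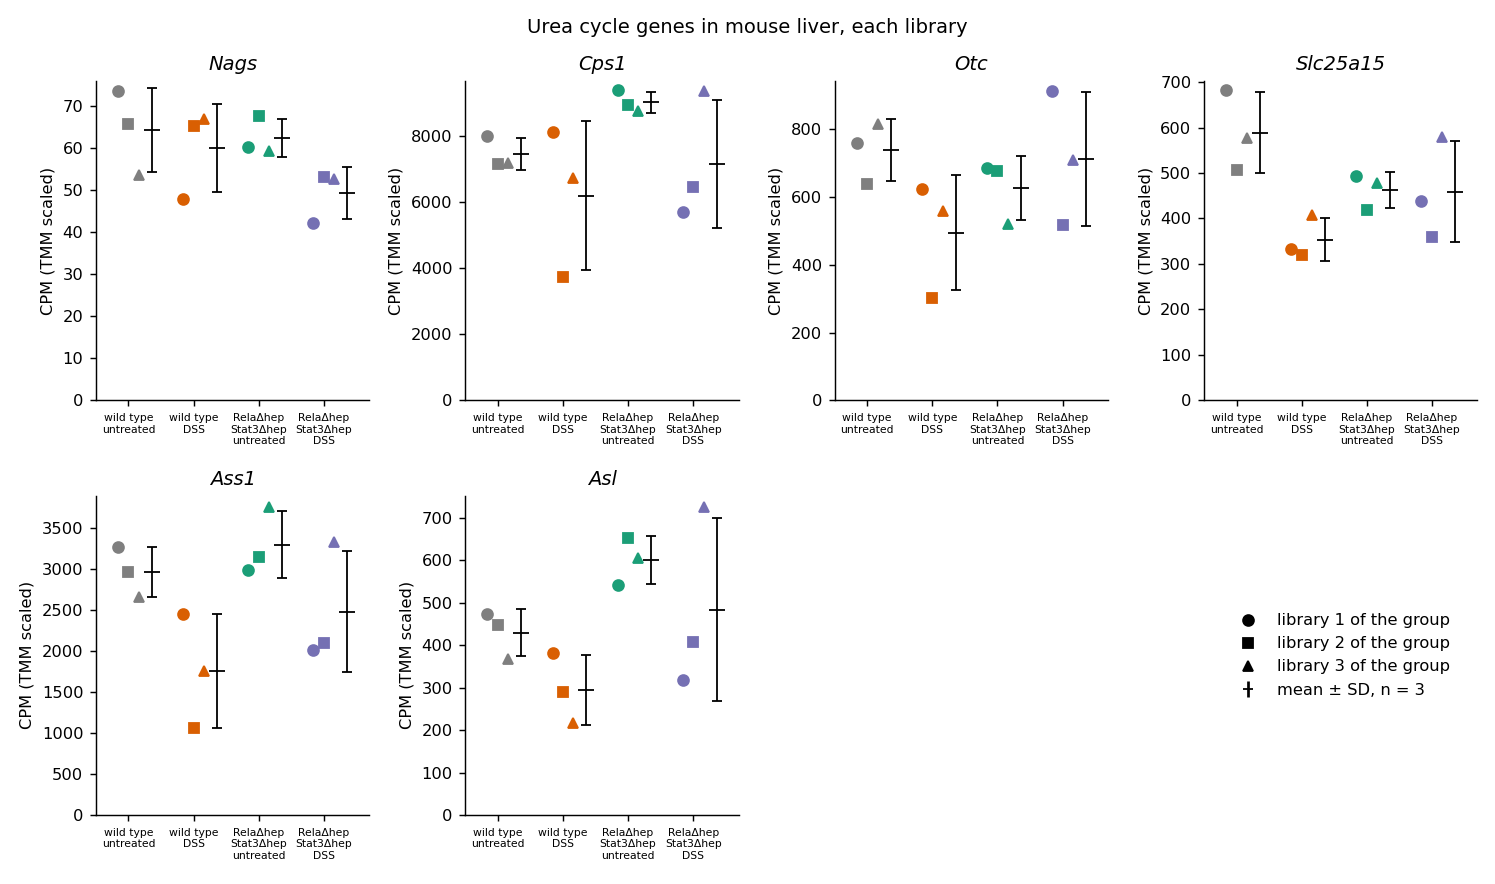
CPM of the 6 genes (linear axes from 0) in each of the 12 libraries, with symbols for the library within its group and black marks for the mean ± SD of 3. Slc25a15, Ass1 and Otc lie lower in wild type after DSS than on water in every library, with Slc25a15 at 319 to 408 against 506 to 683 CPM.

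The ratio of 2 members within a library does not depend on its depth or scaling factor. Ass1 relative to Cps1 was 0.408, 0.415 and 0.370 in wild type on water and 0.302, 0.284 and 0.261 after DSS, so the DSS libraries were lower and close to each other, the second included. In RelaΔhepStat3Δhep it was 0.319, 0.353 and 0.430 on water and 0.355, 0.325 and 0.357 after DSS, and these overlapped. Otc relative to Cps1 was 0.0893 to 0.114 in wild type on water and 0.0769 to 0.0830 after DSS, again without overlap. In RelaΔhepStat3Δhep it was 0.0594 to 0.0759 on water and 0.161, 0.0803 and 0.0760 after DSS, so these did not overlap either but ran the other way, by a gap in the last digit between 0.0759 and 0.0760. Asl relative to Ass1 overlapped in wild type, at 0.145, 0.151 and 0.138 on water and 0.156, 0.274 and 0.123 after DSS, and so did Slc25a15 relative to Otc, at 0.899, 0.793 and 0.706 and then 0.533, 1.05 and 0.731. Both also overlapped in RelaΔhepStat3Δhep, at 0.161 to 0.208 on water and 0.158 to 0.218 after DSS for Asl relative to Ass1 and at 0.619 to 0.919 and 0.482 to 0.814 for Slc25a15 relative to Otc. Thus 2 of the 4 ratios computed did not overlap in wild type and 1 in RelaΔhepStat3Δhep. For single genes, 18.7% and 31.8% of all tested had groups that did not overlap in these comparisons, and no such share was computed for ratios. The ratios were chosen after the levels had been seen and carry no test.

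The same comparison in RelaΔhepStat3Δhep mice asks whether the response is there when hepatocytes are meant to lack both factors. The edgeR test called 0 of 6 members, DESeq2 and limma-voom called none, and 0 had an unadjusted p under 0.05. In this comparison edgeR called 7.02% of all genes (1240 genes), and 24.1% (4261 genes) had an unadjusted p under 0.05. DESeq2 called 2375 genes and limma-voom 1797. The log2 fold change was negative for 5 of 6, with a median of -0.32 against -0.01 over all genes. That median was -0.15 without the first DSS library and -0.48 without the third. As given above, sex-linked transcripts separated these 2 groups, and with sex as a covariate, a fit that rests on the 1 library with transcripts of both sexes, that median was -0.01. With that covariate edgeR called 4 genes in all, the Y-linked Ddx3y, Uty, Kdm5d and Eif2s3y.

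Nags was the 1 member of 6 whose groups did not overlap, where 31.8% of all genes had such groups. It was at 60.1, 67.5 and 59.3 CPM on water and at 42.2, 53.1 and 52.6 after DSS. Its log2 fold change was -0.34 (SE 0.16, 95% interval -0.69 to 0.01; edgeR adjusted p = 0.224) and 0.04 with sex as a covariate.

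Slc25a15 was at 494, 418 and 477 CPM on water and at 439, 359 and 578 after DSS in RelaΔhepStat3Δhep. The DSS libraries lay on both sides of the water libraries, and the log2 fold change was -0.01 (SE 0.20, 95% interval -0.44 to 0.41; edgeR adjusted p = 0.977). Otc was at 687, 676 and 519 CPM on water and at 912, 518 and 710 after DSS, with a log2 fold change of 0.18 (95% interval -0.40 to 0.77; edgeR adjusted p = 0.727).

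Ass1 was at 2987, 3145 and 3758 CPM on water and at 2017, 2094 and 3332 after DSS. Cps1 was at 9369, 8915 and 8747 CPM on water and at 5681, 6447 and 9347 after DSS. Asl was at 542, 654 and 606 CPM on water and at 319, 407 and 727 after DSS. In all of them the first and second DSS libraries lay below every water library and the third lay among or above them. The log2 fold changes were -0.41 for Ass1, -0.33 for Cps1 and -0.31 for Asl, with edgeR adjusted p-values of 0.425, 0.512 and 0.545. Without the third DSS library they were -0.68, -0.57 and -0.72, and without the first -0.30, -0.20 and -0.10. Over the alternatives other than leaving out 1 library Ass1 ran from -0.44 to -0.18, Cps1 from -0.36 to -0.26 and Asl from -0.34 to 0.018. The third DSS library was above its group mean for all 6 members, and the first and second were each below it for 5.

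**Figure D3:**
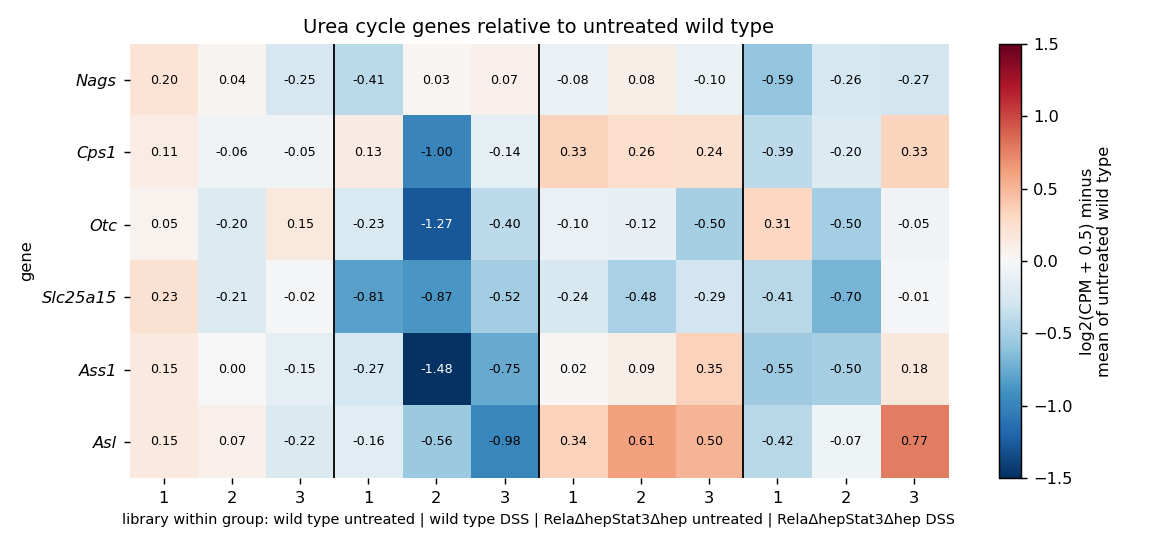
log2(CPM + 0.5) of each gene in each library minus the mean of the 3 untreated wild-type libraries, in blue for lower and red for higher. The second wild-type DSS library holds the lowest value (Ass1, -1.48) with Nags near 0 (0.03), and the third RelaΔhepStat3Δhep DSS library is above the untreated wild-type mean in 3 of 6 genes.

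Genotypes, as labelled, were next compared on water, where the question is whether the deletion alone moves the cycle. The edgeR test called 0 of 6 members against 0.0623% of all genes (11 genes), and 0 members had an unadjusted p under 0.05 against 11.7% of all genes. DESeq2 and limma-voom called no member, against 341 and 95 of all genes. Cps1 was higher in every RelaΔhepStat3Δhep library, at 8747 to 9369 CPM against 7136 to 7997 in wild type, with a log2 fold change of 0.28 (95% interval -0.33 to 0.89; edgeR adjusted p = 0.752). Asl was at 542 to 654 CPM against 367 to 473, also without overlap, with a log2 fold change of 0.48 (95% interval -0.13 to 1.09; edgeR adjusted p = 0.525). Slc25a15 was lower without overlap, at 418 to 494 CPM against 506 to 683, with a log2 fold change of -0.35 (95% interval -0.77 to 0.08; edgeR adjusted p = 0.517). These 3 of 6 compare with 20.2% of all genes whose groups did not overlap. Otc, Ass1 and Nags overlapped and had log2 fold changes of -0.23, 0.15 and -0.04. Leaving out 1 library gave -0.33 to -0.11 for Otc, 0.05 to 0.23 for Ass1 and -0.44 to -0.23 for Slc25a15. The median over the 6 was 0.06 against 0.00 over all genes, and its sign was not stable, at -0.04 without the third untreated wild-type library or with sex as a covariate and at 0.15 without the first.

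After DSS, 5 of the 6 members had a higher fitted level in RelaΔhepStat3Δhep than in wild type, with a median log2 fold change of 0.44 against 0.00 over all genes. The edgeR test called 0 of 6 against 0.334% of all genes (59 genes). DESeq2 and limma-voom called no member, against 601 and 29 of all genes. The 1 member with an unadjusted p under 0.05, against 14.3% of all genes, was Asl. Asl was at 319, 407 and 727 CPM against 381, 290 and 216, which overlapped through its first RelaΔhepStat3Δhep library. Its log2 fold change was 0.71 (SE 0.28, 95% interval 0.10 to 1.32; edgeR adjusted p = 0.289), and it was 0.30 without the third RelaΔhepStat3Δhep library. Otc followed at 0.53, Ass1 at 0.50, Slc25a15 at 0.38 and Cps1 at 0.21, and Nags was at -0.28. Over the alternatives other than leaving out 1 library Otc ran from 0.30 to 0.54, Ass1 from 0.49 to 0.73 and Asl from 0.70 to 1.04. Without the third RelaΔhepStat3Δhep DSS library Ass1 was at 0.23, Slc25a15 at 0.18 and the median at 0.21. Without the second wild-type DSS library Otc was at 0.27, Ass1 at 0.24, Cps1 at -0.05 and the median at 0.25. Without the first wild-type DSS library Ass1 was at 0.82 and Cps1 at 0.46, and without the first RelaΔhepStat3Δhep DSS library Nags was at -0.18. The groups overlapped for all 6 members, while 16.8% of all genes had groups that did not. These groups also differ in sex-linked transcripts, as above, so genotype and sex cannot be told apart here.

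The interaction is the DSS change in RelaΔhepStat3Δhep minus that in wild type, and it compares the 2 responses. Since the RelaΔhepStat3Δhep DSS libraries alone had almost no Y-linked transcripts, it holds any difference by sex as well, and these cannot be told apart. The edgeR test called 0 of 6 members and 0.408% of all genes (72 genes), while DESeq2 and limma-voom called no member, against 718 and 65 of all genes. Slc25a15 had an interaction of 0.72 on the log2 scale (SE 0.28, 95% interval 0.12 to 1.33), with an unadjusted p of 0.0225 and an edgeR adjusted p of 0.233, and was the 1 member with an unadjusted p under 0.05, against 16.3% of all genes. Leaving out any 1 library gave 0.53 to 0.88. Otc had 0.76 (SE 0.38, 95% interval -0.07 to 1.59; edgeR adjusted p = 0.342), and 0.50 without the second wild-type DSS library. With sex as a covariate Slc25a15 had 0.78 and Otc 0.46 (edgeR adjusted p = 0.754 and 0.909). The intervals of Cps1 (-0.93 to 0.80), Ass1 (-0.54 to 1.24), Asl (-0.63 to 1.09) and Nags (-0.73 to 0.26) held values of either sign. The comparisons share groups of libraries, so their values are given side by side and are not independent of each other.

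**Figure D4:**
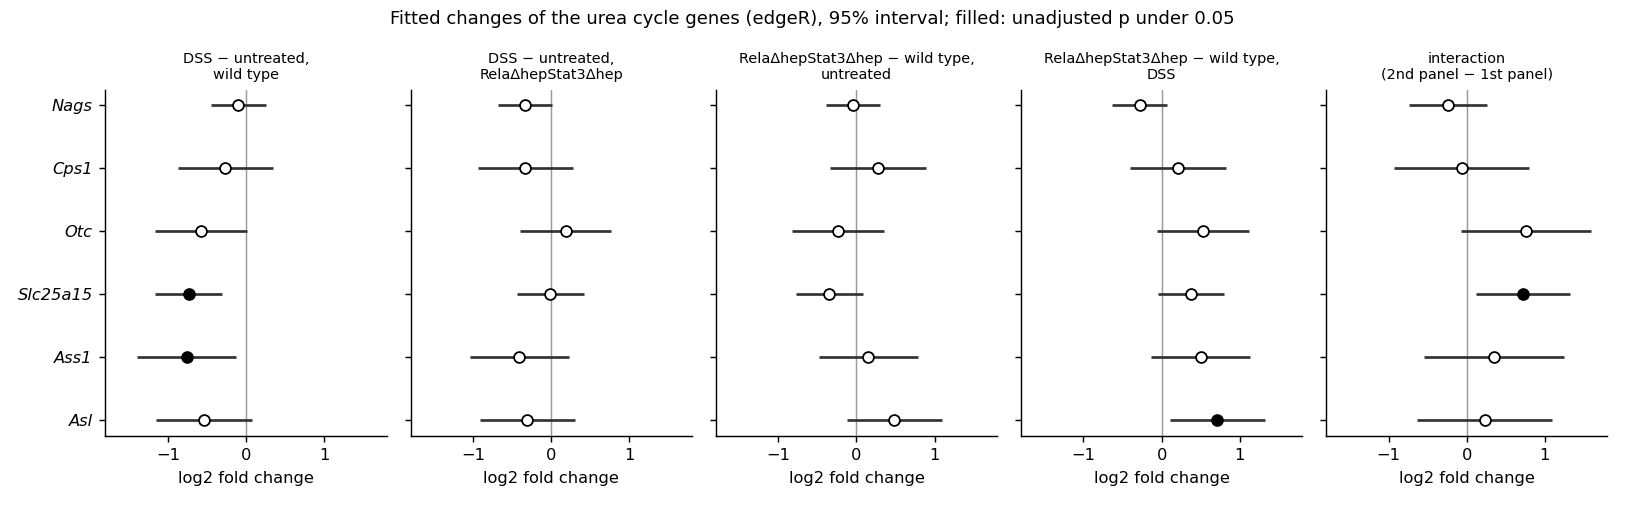
Fitted log2 fold change of each gene in the 4 comparisons and the interaction, with 95% intervals; filled points have an unadjusted p under 0.05. The filled points are Slc25a15 and Ass1 in wild type, Asl between genotypes after DSS and the Slc25a15 interaction (0.72).

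The members did not all vary together from liver to liver. Across the 12 libraries, which share their scaling and fall into 4 groups, Pearson's r of log2 CPM was 0.92 between Cps1 and Ass1 and 0.80 between Ass1 and Asl. After each group's mean had been taken away these were 0.94 and 0.62. Without the second wild-type DSS library they were 0.79 and 0.89. The 10 pairs among Cps1, Otc, Slc25a15, Ass1 and Asl ran from 0.27 to 0.92 with a median of 0.63, and the 5 pairs that include Nags ran from -0.35 to 0.22 with a median of 0.06. Several of these values rest on the second wild-type DSS library: with and without it r was 0.58 and -0.16 between Cps1 and Otc, and 0.62 and 0.02 between Otc and Ass1. Without that library r with Nags was 0.37 for Cps1, 0.36 for Ass1, 0.38 for Slc25a15, 0.16 for Asl and -0.30 for Otc. The 10 pairs without Nags then ran from -0.16 to 0.89, so the pairs with and without Nags overlapped. Correlations of this kind are descriptions over few livers.

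**Figure D5:**
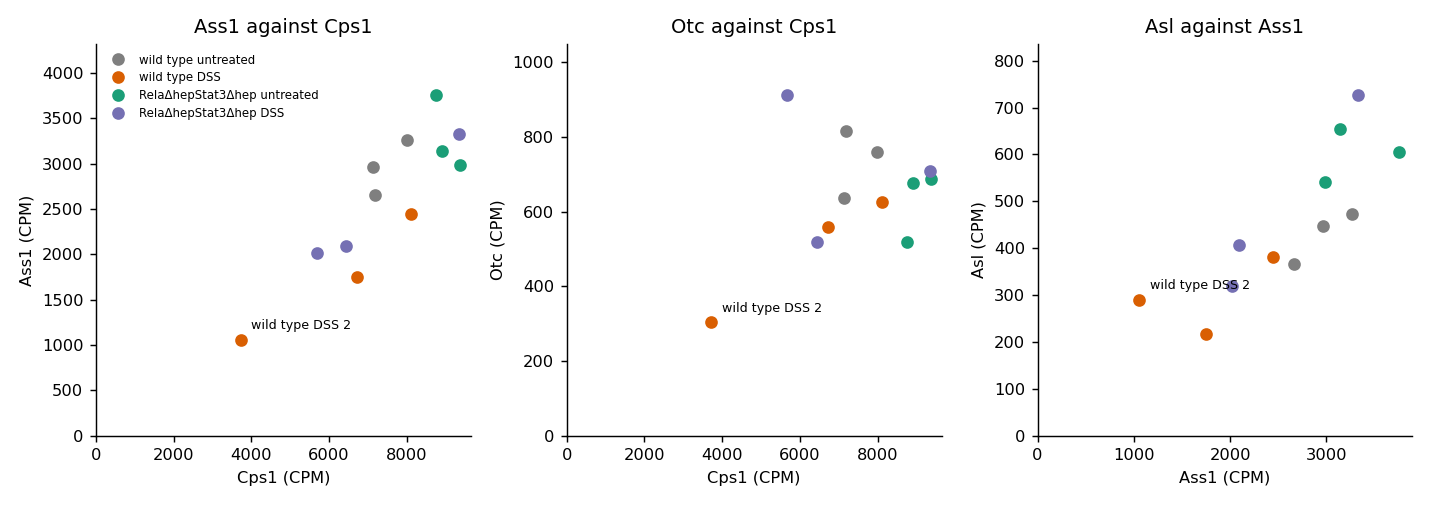
CPM of Ass1 and Otc against CPM of Cps1, and of Asl against Ass1, 1 point per library and colours by group. Ass1 follows Cps1 (r = 0.92 on the log2 scale) and Asl follows Ass1 (0.80). Against Cps1, the second wild-type DSS library stands alone at the lower left for both Ass1 (1057 CPM) and Otc (303 CPM). Without it r with Cps1 was 0.79 for Ass1 and -0.16 for Otc.

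Outside the members, the protein-coding genes whose log2 CPM followed the mean of the standardised members most closely over the 12 libraries included the predicted gene Gm5436 (r = 0.95), Hpd (0.95), Tmem25 (0.95) and Slc47a1 (0.95). Hpd acts in tyrosine breakdown and Slc47a1 exports organic cations. Hpd was at 1484 to 1936 CPM in wild type on water and at 770 to 1305 after DSS, and at 1403 to 1698 and 1185 to 1676 in RelaΔhepStat3Δhep. Slc47a1 was at 89.1 to 102 and 46.9 to 74.1 CPM in wild type and at 88.1 to 120 and 73.2 to 109 in RelaΔhepStat3Δhep. In both genes, as in Ass1 and Cps1, the third RelaΔhepStat3Δhep DSS library was the highest of its group, and the second wild-type DSS library was the lowest of all 12.

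Around the cycle stand the carriers and enzymes that feed it and drain it. After DSS edgeR called 0.685% of all genes in wild type and 7.02% in RelaΔhepStat3Δhep, and 14.5% and 24.1% had an unadjusted p under 0.05. In the same order DESeq2 called 868 and 2375 of the 17652 genes, and limma-voom 210 and 1797. In the interaction edgeR called 0.408% of all genes, DESeq2 718 genes and limma-voom 65, and 16.3% had an unadjusted p under 0.05. Between untreated genotypes DESeq2 called 341 genes and limma-voom 95. The counts for these and the lists that follow stand against those shares and counts over all genes. No gene of these lists that edgeR called after DSS in RelaΔhepStat3Δhep was still called with sex as a covariate. Of 10 partners of the cycle edgeR called 0 in any comparison, with 2 and 3 at an unadjusted p under 0.05 after DSS in wild type and RelaΔhepStat3Δhep. DESeq2 called Slc25a12 in wild type and Slc25a13 in RelaΔhepStat3Δhep, and limma-voom called Slc25a13 in RelaΔhepStat3Δhep. Slc25a13 (citrin) brings aspartate for Ass1 out of the mitochondrion and was at 257, 235 and 240 CPM in wild type on water and 224, 226 and 214 after DSS, and at 260, 286 and 232 and then 156, 149 and 221 in RelaΔhepStat3Δhep. Its log2 fold change after DSS was -0.14 in wild type and -0.56 in RelaΔhepStat3Δhep (edgeR adjusted p = 0.757 and 0.0553). Slc25a12, the related carrier of other tissues, was at 17.3 to 20.6 CPM on water and 23.9 to 29.3 after DSS in wild type, a log2 fold change of 0.45 (edgeR adjusted p = 0.116). Car5a, which supplies bicarbonate to Cps1, was at 62.4 to 77.2 CPM and then 34.6 to 60.1, a log2 fold change of -0.54 (edgeR adjusted p = 0.269).

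Among 11 genes that use arginine or ornithine, edgeR called none in wild type after DSS although 6 had an unadjusted p under 0.05. DESeq2 called Oat and Odc1 lower there, and limma-voom called Odc1. Oat, which turns ornithine to glutamate, was at 497, 367 and 522 CPM on water and at 69.7, 173 and 271 after DSS, a log2 fold change of -1.43 (edgeR adjusted p = 0.0886). Odc1, the first enzyme of polyamine synthesis, was at 67.7, 84.3 and 54.5 CPM and then 32.6, 47.4 and 34.9, a log2 fold change of -0.85 (edgeR adjusted p = 0.0675). In RelaΔhepStat3Δhep edgeR called 1 of the 11, Gamt, which makes creatine, and 5 had an unadjusted p under 0.05. DESeq2 and limma-voom called Gamt and Azin2 lower, the latter at 0.385 to 0.607 CPM on water and 0 to 0.214 after DSS. Gamt fell from 145, 158 and 92.9 CPM to 65.2, 60.8 and 64.2, a log2 fold change of -1.06 (edgeR adjusted p = 0.0134).

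Of 7 genes of ammonia and glutamine handling edgeR called 0 after DSS in either genotype, with 1 and 4 at an unadjusted p under 0.05, and DESeq2 called Slc38a3 and Slc1a2 lower in RelaΔhepStat3Δhep. Of 19 genes of amino acid catabolism edgeR called 0 in wild type (6 at an unadjusted p under 0.05; DESeq2 and limma-voom called none) and 4 in RelaΔhepStat3Δhep, where 7 had an unadjusted p under 0.05. DESeq2 called those 4 with Tat and Got2, and limma-voom called those 4. There Prodh (proline oxidation) and Bckdha (branched-chain keto acid oxidation) fell with log2 fold changes of -1.62 and -0.58 (edgeR adjusted p = 0.0134 and 0.0466). Prodh was at 193 to 238 CPM on water and 52.1 to 83.1 after DSS there, against 86.8 to 137 and 37.0 to 103 in wild type, and DESeq2 called it higher in untreated RelaΔhepStat3Δhep than in untreated wild type. Gpt2, an alanine aminotransferase, fell from 439 to 669 CPM on water to 199 to 334 after DSS (edgeR adjusted p = 0.0406). Agxt, which removes glyoxylate, rose from 135, 135 and 144 CPM to 327, 300 and 372, a log2 fold change of 1.27 (edgeR adjusted p = 0.0130). In wild type Agxt was at 269 to 368 CPM on water and 138 to 306 after DSS, so the low group was untreated RelaΔhepStat3Δhep. Between untreated genotypes its log2 fold change was -1.18 (edgeR adjusted p = 0.115) and its interaction was 1.61 (edgeR adjusted p = 0.0742), and DESeq2 and limma-voom called both. The 11 regulators of the cycle are transcription regulators and Gcgr, the glucagon receptor. Of these edgeR called 0 in wild type (1 at an unadjusted p under 0.05) and 3 in RelaΔhepStat3Δhep, where 8 had an unadjusted p under 0.05. DESeq2 called 7 there, 6 lower and Ppargc1a higher, and limma-voom called 6, all lower. Gcgr was among the lower calls of both tools, which called 2375 and 1797 of all genes. The nuclear receptors Hnf4a, Nr1h4 and Ppara fell there with log2 fold changes of -0.70, -0.71 and -0.93, and their edgeR adjusted p-values were 0.0325, 0.0400 and 0.0145. Hnf4a was at 1144 to 1226 CPM on water and 624 to 797 after DSS there, against 803 to 976 and 702 to 945 in wild type, so its untreated RelaΔhepStat3Δhep libraries were the highest of all 12. Nr1h4 was at 93.7 to 142 CPM and then 65.3 to 73.5 there, against 111 to 131 and 78.0 to 124 in wild type. Ppara was at 251 to 383 CPM and then 149 to 179 there, against 235 to 301 and 203 to 285. In the interaction edgeR called 0 of the 11 (4 at an unadjusted p under 0.05, against 16.3% of all genes). DESeq2 called Hnf4a and Cebpb there, against 718 of all genes, and limma-voom called none, against 65. The members of the cycle had a median of -0.32 in the same libraries. With sex as a covariate edgeR called none of Gamt, Prodh, Bckdha, Gpt2, Agxt, Hnf4a, Nr1h4 and Ppara.

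Markers of liver zones and of other cells were also followed in these libraries. All 8 pericentral markers tested had a negative log2 fold change after DSS in both genotypes, with medians of -1.04 and -1.33; edgeR called 0 in wild type (3 at an unadjusted p under 0.05; DESeq2 called Oat) and 1, Cyp2e1 (-2.10), in RelaΔhepStat3Δhep (2 at an unadjusted p under 0.05; DESeq2 also called Slc1a2). The summed pericentral level was 5465 to 7653 CPM in wild type on water and 2423, 1996 and 7531 after DSS. In the third DSS library Cyp2e1, Lgr5, Axin2 and Tbx3 were above every water library, and Cyp2e1 alone made up 6431 CPM of its sum. The other 4 of the 8, Oat, Slc1a2, Cyp1a2 and Lhpp, were below every water library in all 3 DSS libraries, where 18.7% of all genes had groups that did not overlap. In RelaΔhepStat3Δhep the pericentral sum was 6751 to 9429 CPM on water and 1403, 2521 and 2442 after DSS, without overlap. For 9 periportal markers, the zone where the cycle is strongest, the medians were -0.33 and -0.28, with 5 of 9 negative in each genotype. Of these edgeR called 0 in wild type (1 at an unadjusted p under 0.05) and 1, Ctsc (0.99), in RelaΔhepStat3Δhep (2 at an unadjusted p under 0.05), where DESeq2 and limma-voom called Cyp2f2 as well. Cyp2f2, a cytochrome P450, was at 1241 to 1422 CPM on water and 466 to 762 after DSS there (edgeR log2 fold change -1.15, adjusted p = 0.0837). Their sum was 7035 to 7516 CPM on water and 5647 to 8456 after DSS in wild type. In RelaΔhepStat3Δhep it was 7344 to 9278 CPM on water and 5931 to 8282 after DSS.

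Of 7 Kupffer cell markers edgeR called 6 higher after DSS in RelaΔhepStat3Δhep and 0 in wild type, where 5 had an unadjusted p under 0.05. DESeq2 called 7 and limma-voom 6 in RelaΔhepStat3Δhep, all higher, against 2375 and 1797 of all genes. Both called 0 in wild type, against 868 and 210 of all genes. With sex as a covariate edgeR called 0 of the 7 in either genotype. The summed level was 256 to 534 CPM in wild type on water and 551, 908 and 409 after DSS. In RelaΔhepStat3Δhep it was 314 to 346 CPM on water and 628 to 998 after DSS. Markers of monocytes and neutrophils summed to 6.78 to 15.0 CPM in wild type on water, and after DSS to 101 in the second library against 14.9 and 8.43 in the other two. The neutrophil genes S100a8 and S100a9 made up 38.2 and 39.2 CPM of it, while Ccr2, a monocyte receptor, was at 8.64 there and at 8.97 and 5.64 in the other two. Of the 6 tested edgeR called 0 after DSS in either genotype, while 5 and 6 had an unadjusted p under 0.05 and DESeq2 called 3 and 6 higher (limma-voom 0 and 1). In RelaΔhepStat3Δhep the sum was 5.92 to 7.72 CPM on water and 58.5, 19.6 and 21.8 after DSS, and the groups of 6 of the 6 markers did not overlap, against 31.8% of all genes. The part of these cells and zones in the members' levels was not tested, and in whole liver fewer hepatocytes and less RNA per hepatocyte cannot be told apart.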

How the data were processed

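Libraries of liver RNA were prepared after removal of ribosomal RNA and read from both ends. The authors trimmed reads with fastp 0.23.2, aligned them to mm9 with HISAT2 2.2.1 and deposited a table of estimated counts per gene, made with StringTie 2.2.1 and written as whole numbers with no normalization. The annotation behind the counts is not given in the sources used here. GENCODE vM1 named 28677 of the 51609 rows.

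Testing used edgeR 4.0.16 in R 4.3.3 (filterByExpr, TMM, robust quasi-likelihood F tests), with all 12 libraries in 1 model of 4 groups taken from the sample titles. P-values were adjusted by Benjamini-Hochberg over the 17652 genes tested, at a threshold of 0.05. Intervals are 95%, and the common biological coefficient of variation was 0.317. The depth was 65879529 to 82850098 counts per library. The steps were tested on simulated data, and no library repeated another of its own group. Libraries of different groups were not compared in this way. P-values measure the spread between these samples, which the submitters call biological replicates. With 3 against 3, an exact permutation test cannot go below 0.1. Levels are CPM on TMM-scaled library sizes, and correlations used log2(CPM + 0.5).

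Alternatives were DESeq2 1.42.0, limma-voom with quality weights (limma 3.58.1), size factors of DESeq2 in edgeR, no low-count filter, a minimum of 10 counts in all libraries, a fit to the compared groups alone, a replicate block, sex (Xist over 100 CPM) as a covariate (which counts the library with transcripts of both sexes as female), each library left out, another gene length and no TMM factors. Every member was named, with listed genes that were called or act next to a member and genes among the most alike in pattern, and certain genes are not reported here and are in no summary over a list. Lists covered partners of the cycle, ammonia handling, arginine use, amino acid catabolism, regulators, liver zones and cell types. The ratios, and Slc25a12, Slc25a13, Oat and Odc1, were picked with their values known. The members and lists were chosen with earlier results of these data known.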

Additional observations from a re-analysis of the deposited data

How the results depend on the processing

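The edgeR test called 0 members in each comparison under every filter, scaling and omitted library tried. DESeq2 called 1, Slc25a15 in wild type, whose adjusted p ran from 0.00556 to 0.284 over the alternatives. Over all members, comparisons and alternatives 426 log2 fold changes kept their direction and their side of the threshold, 23 changed sign and 1 came past the threshold. The counts over all genes depended more on the settings. In the order DSS in wild type, DSS in RelaΔhepStat3Δhep, genotype on water, genotype after DSS and interaction, edgeR called 121, 1240, 11, 59 and 72 genes, DESeq2 868, 2375, 341, 601 and 718, and edgeR with sex as a covariate 50, 4, 2, 5 and 4. In that order limma-voom called 210, 1797, 95, 29 and 65. With only the groups compared edgeR called 21 for DSS in wild type and 60 for genotype on water. Leaving out 1 library gave 35 to 209 (without the second untreated and the first DSS library), 241 to 838 (without the second untreated and the third DSS library), 2 to 9 (without the third and the second untreated wild-type library), 11 to 392 (without the first RelaΔhepStat3Δhep and the first wild-type DSS library) and 21 to 220 (without the second untreated RelaΔhepStat3Δhep and the first wild-type DSS library). Replicate numbers did not pair the samples: same-numbered libraries deviated with correlations of -0.07 to 0.20, and a fit with the replicate block called 119, 1164, 33, 66 and 128 genes and 0 members. With limma-voom the sign changed for Slc25a15 after DSS in RelaΔhepStat3Δhep (0.065). With sex as a covariate it changed after DSS in RelaΔhepStat3Δhep for Otc (-0.041), Asl (0.018), Nags (0.040) and Slc25a15 (0.030), with a median of -0.011, between genotypes after DSS for Nags (0.095), and in the interaction for Cps1 (0.032) and Nags (0.25), with a median of 0.55. Leaving out 1 library gave, after DSS in wild type, -0.22 to 0.039 for Nags, and in RelaΔhepStat3Δhep -0.044 to 0.37 for Otc and -0.21 to 0.14 for Slc25a15. It gave -0.16 to 0.062 for Nags and -0.037 to 0.15 for the median between genotypes on water, where the median was -0.036 with sex as a covariate, and -0.053 to 0.46 for Cps1 and 0.21 to 0.59 for the median after DSS. In the interaction it gave -0.34 to 0.18 for Cps1, -0.18 to 0.46 for Asl and -0.052 to 0.56 for the median, which was lowest without the third RelaΔhepStat3Δhep DSS library and highest without the first wild-type DSS library. With the longest transcript as the gene length 2 of 6 members kept their place in the order of levels. The cause of these shifts was not tested.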

Other observations

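The remaining cell type lists gave the following values after DSS, none of whose calls by edgeR were kept with sex as a covariate. Markers of T and B lymphocytes had negative log2 fold changes in 8 of 8 in wild type (median -1.18), at summed levels of 6.03 to 10.2 CPM on water and 3.51 to 3.92 after DSS. In RelaΔhepStat3Δhep they were positive in 7 of 8 (median 0.88), and the interaction was positive in 8 of 8 (median 1.93). The edgeR test called 0 of them in these 3 comparisons, where 5, 3 and 7 had an unadjusted p under 0.05. Over all genes 14.5%, 24.1% and 16.3% had such a p. DESeq2 called Ms4a1 and Cd79a, both B cell genes, in the interaction, where it called 718 genes. Of 6 stellate cell markers edgeR called 0 in wild type (1 at an unadjusted p under 0.05) and 1, Des, an intermediate filament, in RelaΔhepStat3Δhep, at 3.12 to 4.35 CPM on water and 8.59, 7.10 and 28.2 after DSS. Of 5 markers of alternatively activated macrophages it called 0 in wild type (1 at an unadjusted p under 0.05; DESeq2 called Chil3) and 1, Chil3, in RelaΔhepStat3Δhep, at 0.189 to 0.239 CPM on water and 3.97 to 19.8 after DSS. Of 6 erythroid markers it called 0 in wild type, with 0 at an unadjusted p under 0.05 and 0 by DESeq2, and in RelaΔhepStat3Δhep 1, Alas2, the erythroid enzyme of heme synthesis, which was lower (-2.68). Of 6 sinusoidal endothelial, 4 cholangiocyte and 3 small intestine markers tested edgeR called 0 in both genotypes, with 2, 1 and 0 at an unadjusted p under 0.05 in wild type and 1, 0 and 1 in RelaΔhepStat3Δhep. DESeq2 called Kdr lower and Sox9 higher in wild type and Clec4g and Fabp2 higher in RelaΔhepStat3Δhep, and limma-voom called Kdr and Oit3 lower in wild type.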
